A study of Mus musculus with 8 samples.

Results

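Manganese, zinc and copper handling in the liver was followed through 10 genes that were picked for their function. They comprise the exporters Slc30a10 and Slc30a1, the importers Slc39a14, Slc39a8 and Slc39a1, the metallothioneins Mt1 and Mt2, and the copper genes Atp7b, Slc31a1 and Cp. Each gene was read from the probe set that the platform annotation pairs with its symbol alone, and 9 of the 10 had such a probe set, of 19540 genes in all. Mt1 was not analysed here. Slc39a1 was the only one of the 9 with more than 1 probe set, and the one with the higher mean over the 8 arrays stood for it. The probe set was thus chosen by its brightness, which takes no account of the groups. Slc30a10 was already known to differ between these groups when the genes were picked, so its values are given as a description and support nothing further.

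The series compared total liver RNA of 4 WT and 4 HNF6KO samples on Affymetrix arrays, and the design text describes the second group as depleted of HNF6, the homeodomain transcription factor encoded by Onecut1. All 8 samples came from male mice of strain C57B/6, aged 12 weeks, fed chow, given no treatment and taken at ZT10, which is 10 h after lights on. How HNF6 was removed, in which cells, and whether each array is a separate animal are not given in the labels, so each p-value reflects no more than the spread among these arrays, which may be technical. The question addressed is which liver transcripts differ without HNF6 at that time of day.

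Metals that enter the body with food pass through the liver, which stores them, hands them to proteins and excretes the surplus in bile. SLC39 proteins carry zinc, manganese and other divalent metals into the cytosol, and SLC30 proteins carry zinc, or in the case of SLC30A10 manganese, out of it. SLC30A10 moves manganese across the canalicular membrane into bile, and inherited loss of it in humans leads to a build-up of manganese in liver, blood and brain. Metallothioneins bind zinc and copper. The zinc sensor MTF-1 switches on Mt1, Mt2 and Slc30a1 through metal response elements. Copper enters hepatocytes through SLC31A1 (CTR1) and leaves through ATP7B, the ATPase that is defective in Wilson disease, which also loads copper onto ceruloplasmin, the product of Cp.

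The sequence before the start of 3 of these genes is shown because Slc30a10 is the gene that differed and Slc30a1 and Mt2 are textbook MTF-1 targets that serve as its comparison. Each is the 250 bases before a transcript start, from RefSeq on GRCm38.p6, plus strand, 5′ to 3′. Capitals mark matches to a metal response element core (TGCACNC or TGCGCNC) or, in Slc30a10 alone, to the sequence ATTGAC. The windows lie at chr1:185454598-185454847 for Slc30a10, chr1:191906531-191906780 for Slc30a1 and chr8:94172368-94172617 for Mt2.
Slc30a10: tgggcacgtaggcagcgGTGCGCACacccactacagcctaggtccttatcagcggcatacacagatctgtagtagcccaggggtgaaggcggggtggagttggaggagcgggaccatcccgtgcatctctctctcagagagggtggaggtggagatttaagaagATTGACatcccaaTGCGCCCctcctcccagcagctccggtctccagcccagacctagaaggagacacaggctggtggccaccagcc
Slc30a1: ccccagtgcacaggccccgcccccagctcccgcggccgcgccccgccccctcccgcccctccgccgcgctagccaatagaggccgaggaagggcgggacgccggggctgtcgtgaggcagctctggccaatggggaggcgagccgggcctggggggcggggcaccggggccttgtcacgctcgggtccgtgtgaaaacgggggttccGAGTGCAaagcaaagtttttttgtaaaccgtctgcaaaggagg
Mt2: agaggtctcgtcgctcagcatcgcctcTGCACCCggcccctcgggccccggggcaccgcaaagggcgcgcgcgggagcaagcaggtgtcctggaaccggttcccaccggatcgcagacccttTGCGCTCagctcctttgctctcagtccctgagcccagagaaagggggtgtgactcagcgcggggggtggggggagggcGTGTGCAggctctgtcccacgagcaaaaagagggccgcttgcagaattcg

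The RefSeq table held 11 windows, each from 250 bases before to 50 after a start, for 9 of the 10 genes. Both strands were searched. The Slc30a10 window held 3 matches to TGCGCNC, 2 of which overlap on opposite strands, and the other starts at position -73 relative to the transcript start. At least 3 matches to either core were found in 1.97% of all 32851 windows, and at least 3 to TGCGCNC in 1.07%. The Mt2 window held 4 matches to either core, 1 of them after the start and so not printed, and at least 4 were found in 0.517% of windows. The Slc30a1 window held 2, again with 1 after the start, against 7.11% of windows with at least 2. The HNF6 cores ATTGAT and ATCGAT were in 0 of the 11 windows and in 8.40% of all windows. A further spelling of that core, ATTGAC, was searched after the windows had been seen. It occurred once, starting at position -86 of Slc30a10, and is in 6.27% of all windows. A match describes letters only, and with so few windows nothing is read from the absence of one. Binding of MTF-1 or HNF6 was not measured.

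Slc30a10, the manganese exporter, was the gene of this group that fell in HNF6KO. WT arrays 1 to 4 had log2 expression of 8.61, 8.45, 8.61 and 8.31. HNF6KO arrays 1 to 4 had 7.28, 7.43, 7.10 and 7.45. Every HNF6KO array lay below every WT array, and 0.86 log2 units separated the lowest WT from the highest HNF6KO array. WT averaged 8.49 ± 0.14 and HNF6KO 7.31 ± 0.16 (mean ± SD, n = 4 each). The log2 difference, HNF6KO minus WT here and throughout, was -1.18 ± 0.10 (SE, 95% interval -1.40 to -0.96), a 2.26-fold lower level. Taken alone, the arrays numbered 1 and 2 gave -1.18 and those numbered 3 and 4 gave -1.18, although the latter lost the call (limma, adjusted p = 0.0543 with 2 arrays a group). The lowest Slc30a10 value, 7.10, stood above the median probe set of every array (6.89 to 6.97). In whole liver, less Slc30a10 RNA per cell and fewer cells that make it cannot be told apart.

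Of the 9 genes measured, 1 fell (Slc30a10), 0 rose and 8 did not pass limma's adjusted p of 0.05, a threshold that 0.399% of all genes passed. Slc30a10 was also the 1 gene of the 9 whose groups did not overlap, against 5.67% of all genes (3.21% with HNF6KO lower and 2.45% with HNF6KO higher). Since Slc30a10 was picked with its difference known, nothing is read from that count. The median log2 difference of the 9 was -0.06, and that of all genes -0.01. For 7 of the 8 others the 95% interval of the difference lay within a 2-fold change either way, and the exception was Mt2. The intervals of those 7 ran at their widest from -0.41 to 0.60, both bounds belonging to Slc39a14.

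**Figure D1:**
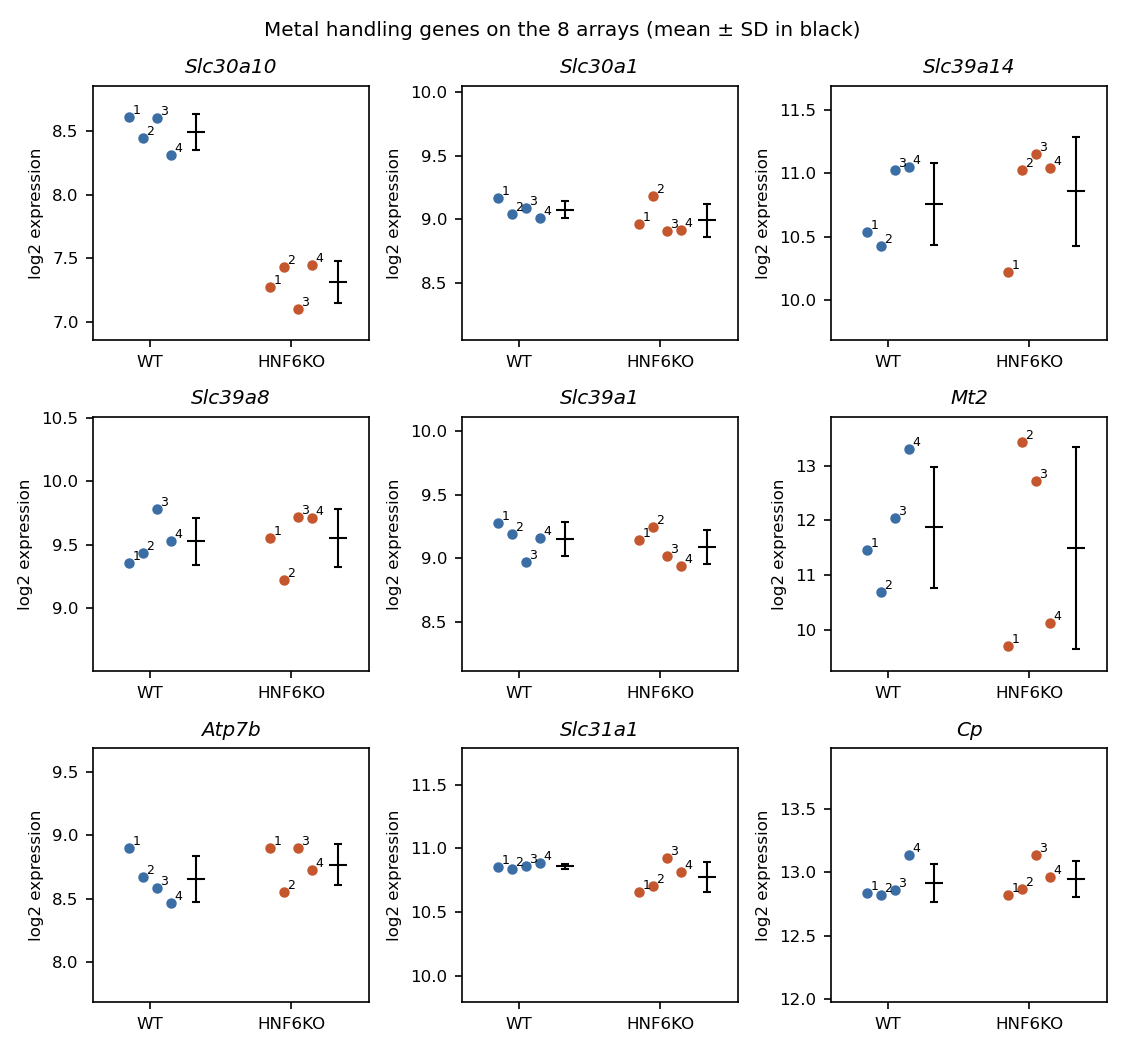
Log2 expression of the 9 measured genes on each array (y axis, at least 2 log2 units in every panel), with WT in blue, HNF6KO in red, the array number beside each point, and the group mean ± SD (n = 4) in black. The groups are apart for Slc30a10 alone, at 8.49 against 7.31, and Mt2 has the widest spread.

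The labels and the tissue were checked on genes outside the group. Onecut1 was lower on all 4 HNF6KO arrays (8.67 to 9.32) than on any WT array (9.87 to 10.52). Its log2 difference was -1.32 ± 0.18 (SE, limma adjusted p = 0.0273), and the call was lost in 6 of 20 alternative fits. The size went with the array number, at -0.83 within arrays 1 and 2 and -1.80 within arrays 3 and 4. The summed level of 7 of 8 hepatocyte markers (log2 of the summed linear values) was 16.31 to 16.41 in WT and 16.35 to 16.49 in HNF6KO. Sums of Kupffer (10 genes), endothelial (8), stellate (8), biliary (4 of 5), lymphoid (5) and neutrophil (4) markers overlapped between the groups. Cd79a, Ms4a1 and S100a8 lay in the lowest 20% of genes on every array. Log2 differences below 0 were found for 0 Kupffer, 0 endothelial, 3 stellate, 2 biliary, 3 lymphoid and 2 neutrophil markers, against 57.4% of all genes. The median was 0.10 for Kupffer and 0.17 for endothelial markers, and 0 genes of these lists passed. Only 2 of 7 erythroid markers were measured, and their sum was 9.90 to 10.18 in WT and 8.81 to 9.60 in HNF6KO, lower in HNF6KO as Slc30a10 was. That sum is mostly Alas2, at -0.98 ± 0.19 (log2 difference ± SE, limma adjusted p = 0.0925). Slc4a1, the other measured erythroid marker, stood at -0.03 ± 0.08 (limma adjusted p = 0.958), and its groups overlapped. The part of the erythroid sum in the Slc30a10 difference was not tested. Kupffer sums also went with the array number, at 11.14 to 12.06 on arrays 1 and 2 and 12.33 to 12.87 on arrays 3 and 4 of both groups.

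Slc30a1, the plasma membrane zinc exporter, did not pass. WT log2 values were 9.17, 9.04, 9.08 and 9.01 and HNF6KO values 8.96, 9.19, 8.91 and 8.92. HNF6KO array 2 was the highest of all 8 and the other HNF6KO arrays the lowest, so the groups overlapped. HNF6KO differed from WT by -0.08 ± 0.07 on the log2 scale (SE, 95% interval -0.24 to 0.08, limma adjusted p = 0.800). A fall of the size seen for Slc30a10 lies outside that interval.

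Slc39a14, the importer that brings manganese, zinc and iron from blood into hepatocytes, did not pass. In array order, WT read 10.53, 10.43, 11.02 and 11.05 and HNF6KO read 10.22, 11.02, 11.15 and 11.04 (log2 values). HNF6KO array 1 was the lowest of the 8, and arrays 3 and 4 exceeded arrays 1 and 2 within each group. Between the groups the log2 difference came to 0.10 ± 0.22 (SE, 95% interval -0.41 to 0.60, limma adjusted p = 0.951). Its sign turned without WT array 2, at -0.01. The mean of arrays 3 and 4 exceeded that of arrays 1 and 2 by 0.56 in WT and 0.47 in HNF6KO, but HNF6KO arrays 3 and 4 exceeded HNF6KO array 2 alone by only 0.07.

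Slc39a8, a related importer that recovers manganese from bile, also differed more with the array number than with the genotype. It read 9.35, 9.44, 9.78 and 9.53 in WT and 9.56, 9.23, 9.72 and 9.71 in HNF6KO. The lowest array and the array next to the highest were both HNF6KO, and the groups overlapped. Its log2 difference was 0.03 ± 0.13 (SE, 95% interval -0.26 to 0.31, limma adjusted p = 0.978), and its sign turned when WT array 1 or 2 or HNF6KO array 3 or 4 was left out. The mean of arrays 3 and 4 exceeded that of arrays 1 and 2 by 0.26 in WT and 0.32 in HNF6KO. Marker sums of several cell types did so too. The endothelial sum was 11.55 to 12.12 on arrays 1 and 2 and 12.17 to 12.58 on arrays 3 and 4, the stellate sum 11.66 to 12.15 and 12.23 to 12.50, and the hepatocyte sum 16.31 to 16.39 and 16.40 to 16.49, besides the Kupffer sum given above. Their part in the Slc39a8 values was not tested.

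Slc39a1, a zinc importer of many tissues, ran the other way across the array numbers. Its brighter probe set read 9.28, 9.19, 8.97 and 9.16 in WT and 9.15, 9.25, 9.02 and 8.94 in HNF6KO. Its log2 difference between genotypes was -0.06 ± 0.09 (SE, 95% interval -0.26 to 0.14, limma adjusted p = 0.897). The mean of arrays 3 and 4 minus that of arrays 1 and 2 was -0.17 in WT and -0.22 in HNF6KO. The dimmer probe set of the same gene read 8.08, 8.14, 8.38 and 8.60 in WT and 7.96, 8.11, 8.33 and 8.45 in HNF6KO. Both probe sets gave a small, uncalled difference between the genotypes (-0.09 ± 0.14 for the dimmer, limma adjusted p = 0.909 over all probe sets). They disagreed on the array number, since the dimmer one was higher on arrays 3 and 4 than on arrays 1 and 2 in both groups.

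Mt2, a zinc and copper binding metallothionein, varied more between arrays than any other gene of the group. WT arrays 1 to 4 read 11.46, 10.69, 12.04 and 13.32 on the log2 scale. HNF6KO arrays 1 to 4 read 9.70, 13.43, 12.73 and 10.13. HNF6KO held the highest array and also the lowest pair, and the 8 arrays spanned 3.73 log2 units. The residual SD within groups was 1.53, against a median of 0.10 over all genes. Its log2 difference was -0.38 ± 0.89 (SE, 95% interval -2.38 to 1.62, limma adjusted p = 0.954), so that neither a 2-fold rise nor a 2-fold fall lay outside the interval. Its direction turned without WT array 4 (0.10), HNF6KO array 1 (0.22) or HNF6KO array 4 (0.08). Mt1 and Mt2 are close in sequence, and how far this probe set also reads Mt1 is not known here.

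**Figure D2:**
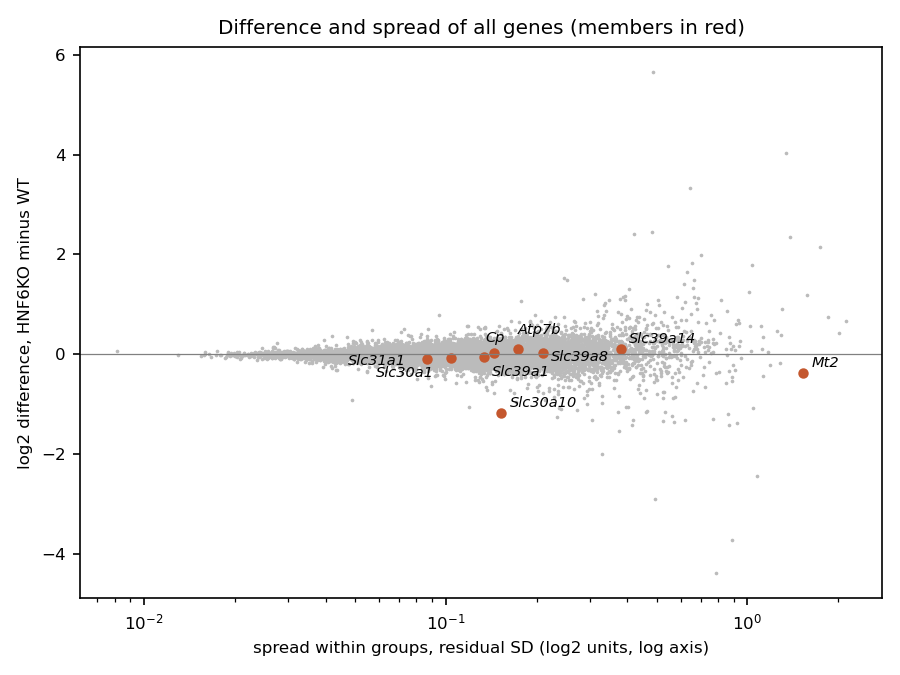
Log2 difference between HNF6KO and WT (y axis) against the spread within groups as residual SD (x axis, log scale) for all 19540 genes in grey, with the 9 measured metal handling genes in red. Slc30a10 lies low at a small spread, and Mt2 lies far right with a residual SD of 1.53.

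The 3 arrays with the highest Mt2 were HNF6KO array 2, WT array 4 and HNF6KO array 3, and the same 3 arrays were the highest for several acute phase genes, which the liver makes more of in inflammation. This held for 8 of 17 acute phase genes and for 0.752% of all genes. The 5 acute phase genes with an SD above 1 in WT were singled out after their values were seen, and 4 of them shared those 3 arrays. Saa1, a serum amyloid A gene, stood at 12.15, 12.23 and 10.65 on WT array 4 and HNF6KO arrays 2 and 3, and at 7.52 to 9.40 on the rest. Lcn2, encoding the siderophore-binding lipocalin, stood at 13.31, 12.24 and 11.94 on those arrays and at 8.37 to 9.70 elsewhere. Orm2, an orosomucoid gene, stood at 12.75, 12.63 and 12.34, with HNF6KO array 4 next at 11.67. The fourth was Saa2, and Apcs, the serum amyloid P gene, had WT array 1 among its highest 3 in place of HNF6KO array 3. At the low end the arrays differed, since HNF6KO array 1, the lowest for Mt2, was the lowest for Lcn2 but not for Saa1, Saa2, Orm2 or Apcs. Whether this acute phase signal has a part in the Mt2 values was not tested.

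Slc39a14 had another set of highest 3 arrays, although its order was not separate from that of Mt2. The 2 genes had a Pearson r of 0.725 within groups (n = 8 arrays), and HNF6KO array 1 was the lowest for both. The genes that glucocorticoids induce are set beside Slc39a14 here. Of 8 such genes measured, 0 shared the highest 3 arrays of Mt2. Fkbp5, a chaperone gene induced by glucocorticoids and chosen after its values were seen, read 8.39, 8.66, 10.85 and 10.99 in WT and 8.49, 9.98, 11.25 and 10.69 in HNF6KO. Zbtb16, a transcription factor gene among the 3 of smallest p in the same list, read 8.24, 8.26, 10.80 and 10.70 in WT and 9.06, 9.54, 10.54 and 10.26 in HNF6KO. As with Slc39a14, arrays 3 and 4 of these genes were above arrays 1 and 2 in each group. This held for 5 of the 8 glucocorticoid-induced genes (not for Tsc22d3, Tat and Pck1) and for 11.9% of all genes. It also held for the Kupffer, endothelial, stellate and hepatocyte marker sums given above, so the order is not particular to glucocorticoid-induced genes. The highest 3 arrays of Slc39a14 (HNF6KO arrays 3 and 4 and WT array 4) were those of 0 of the 8 and of 3.02% of all genes. The part of such a signal in the Slc39a14 values was not tested. Neither list held a gene called between the genotypes. Of the 17 acute phase genes 0 passed, with a median log2 difference of 0.04, and of the 8 glucocorticoid-induced genes 0 passed, with a median of 0.04 (limma, 1 and 0 of them at an unadjusted p of 0.05, which 9.51% of all genes passed, while 0.399% were called). The acute phase gene with the smallest p was Crp, C-reactive protein, at -0.68 ± 0.13 (SE, limma adjusted p = 0.0888).

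**Figure D3:**
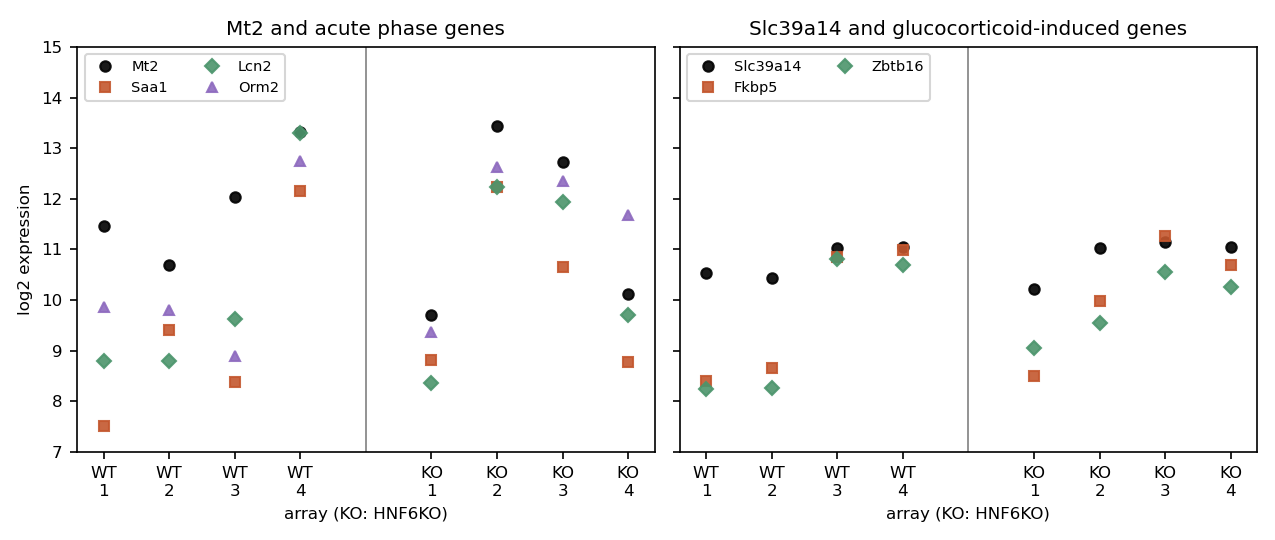
Log2 expression (y axis) on each array (x axis) of Mt2 with the acute phase genes Saa1, Lcn2 and Orm2 (left) and of Slc39a14 with the glucocorticoid-induced genes Fkbp5 and Zbtb16 (right). Mt2 and its neighbours peak on WT array 4 and HNF6KO arrays 2 and 3, and the right-hand genes are higher on arrays 3 and 4 than on arrays 1 and 2 in each group.

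The copper genes did not pass. Atp7b, the copper exporting ATPase, read 8.90, 8.67, 8.59 and 8.47 in WT and 8.90, 8.56, 8.90 and 8.72 in HNF6KO. Its highest arrays in the groups were level and the groups overlapped. Its log2 difference was 0.11 ± 0.11 (SE, 95% interval -0.13 to 0.35, limma adjusted p = 0.831).

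Slc31a1, the copper importer, had the tightest WT values of the group. They were 10.85, 10.84, 10.86 and 10.89, with an SD of 0.02 (n = 4), while HNF6KO arrays read 10.65, 10.70, 10.92 and 10.82, with an SD of 0.12 (n = 4). HNF6KO arrays 1, 2 and 4 lay below every WT array and array 3 above them all. For Slc31a1 the log2 difference was -0.09 ± 0.06 (SE, 95% interval -0.23 to 0.06, limma adjusted p = 0.755). Arrays 1 and 2 alone gave -0.17, and arrays 3 and 4 alone gave -0.0047.

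Cp, the ceruloplasmin gene, read 12.83, 12.82, 12.86 and 13.13 in WT and 12.82, 12.87, 13.13 and 12.96 in HNF6KO. WT array 4 and HNF6KO array 3 were the highest pair and HNF6KO array 4 was next, the same 3 arrays as for Slc39a14. That pair was also among the 3 highest arrays for Mt2, but HNF6KO array 2, the highest for Mt2, read only 12.87 for Cp. The log2 difference was 0.03 ± 0.09 (SE, 95% interval -0.18 to 0.24, limma adjusted p = 0.961), and its sign turned after quantile normalization (-0.0043) and without HNF6KO array 3 (-0.03).

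The wider metal network held no called change in the fit without a block, and Tfrc was called with the array number as a block or split. Of 56 measured genes in 5 lists (61 listed), 0 passed in limma, 3 were higher and 4 lower at an unadjusted p of 0.05, and 3 had groups that did not overlap. The shares over all genes were 0.399% called, 9.51% at an unadjusted p of 0.05 and 5.67% without overlap, and nothing particular to these lists is read from the counts. Their median log2 difference was -0.04, with 34 of 56 below 0, against -0.01 and 57.4% of all genes below 0.

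Among the 8 other SLC30 exporters 0 passed (median log2 difference -0.03), and the smallest p belonged to Slc30a9 at 0.23 ± 0.10 (SE, limma adjusted p = 0.520). The Golgi zinc transporters Slc30a7 and Slc30a5 had log2 differences of -0.08 ± 0.07 and 0.15 ± 0.17 (SE). Of the 11 other SLC39 importers 0 passed (median -0.07). Slc39a13 stood at -0.17 ± 0.07, Slc39a11 at 0.11 ± 0.06 and Slc39a7 at -0.07 ± 0.06 (log2 difference ± SE).

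Of 10 measured genes for zinc sensing, metallothioneins and zinc enzymes 0 passed (median log2 difference -0.07). Adh1, the zinc enzyme alcohol dehydrogenase, had lower values on all 4 HNF6KO arrays, at 13.22 to 13.30 against 13.32 to 13.47, a log2 difference of -0.15 ± 0.05 (SE, limma adjusted p = 0.338). Alad, a zinc enzyme of heme synthesis, stood at -0.24 ± 0.17, and Mt3 at 0.11 ± 0.08. Of 16 measured copper chaperones, delivery proteins and enzymes 0 passed (median 0.06). Steap3, a metalloreductase, was higher on every HNF6KO array, at 8.13 to 8.41 against 8.02 to 8.11, a log2 difference of 0.22 ± 0.06 (SE, limma adjusted p = 0.281). Atox1, the chaperone that delivers copper to ATP7B, stood at -0.15 ± 0.06 and the cytochrome oxidase assembly factor Cox11 at 0.23 ± 0.11.

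Of 11 measured manganese transporters and manganese enzymes 0 passed (median log2 difference 0.0030). Tfrc, the transferrin receptor, through which transferrin-bound iron and manganese enter cells, read 7.58, 7.24, 8.10 and 8.22 in WT and 8.25, 8.19, 8.86 and 8.67 in HNF6KO, in array order. At each array number HNF6KO was the higher, yet the groups overlapped. The log2 difference was 0.71 ± 0.23 (SE, limma adjusted p = 0.344), and the adjusted p was 0.0266 with the array number as a block and 0.0101 with the split of arrays 1 and 2 from 3 and 4 as a term. The divalent metal transporter Slc11a2 stood at -0.19 ± 0.08 and the Golgi manganese transporter Tmem165 at 0.13 ± 0.08. The manganese enzymes Sod2, Arg1, Glul and Pcx had log2 differences of 0.04, -0.04, -0.06 and 0.0030, and were chosen after their values were seen.

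**Figure D4:**
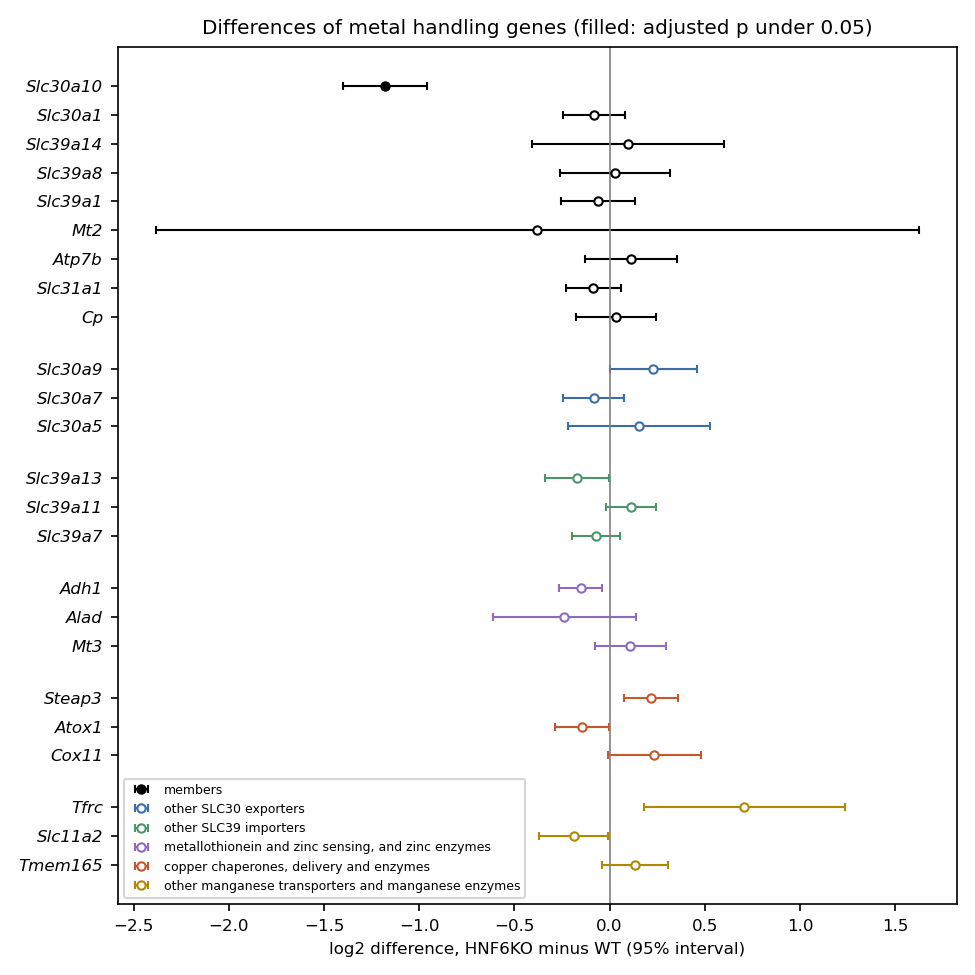
Log2 difference between HNF6KO and WT with its 95% interval (x axis) for the 9 measured genes (black) and the 3 genes of smallest p in each of the 5 other metal lists (colours), where filled points have an adjusted p under 0.05 in limma. Slc30a10 at -1.18 is the 1 filled point, the Mt2 interval runs from -2.38 to 1.62, and Tfrc at 0.71 has the largest difference among the other lists.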

How the data were processed

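The authors deposited 1 table of 22725 probe sets on 8 arrays, and its values are read as log2 expression because they run from 3.69 to 14.11. No source used here states the base of the logarithm or how the authors corrected, normalized and summarised the signals. The platform annotation paired 21113 probe sets with 1 symbol, 43 with several and 1569 with none, and the brightest probe set stood for each of 19540 genes. No value was changed or filtered. The test of HNF6KO against WT was limma 3.58.1 under R 4.3.3 (lmFit, then eBayes, without covariates). P-values were adjusted by Benjamini-Hochberg over the 19540 genes, and 0.05 was the threshold. The fit was tested on simulated data. SE and intervals are the moderated ones, and the intervals are not adjusted. The number of arrays, 4 a group, limits the precision.

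The 10 genes and the lists were chosen with earlier results of these data known. Named genes are the 10, Onecut1, and of each other metal or stress list any called gene and up to 3 of smallest p. Saa1, Saa2, Lcn2, Apcs, Fkbp5, Sod2, Arg1, Glul and Pcx fall outside this rule and were named after their values were seen. Marker lists are given as counts and sums. No pair of arrays was a copy (Pearson r 0.987 to 0.997). Promoter windows came from RefSeq on GRCm38.p6, and Slc39a14 was not searched. The alternatives were 3 other normalizations, a filter at the 40th percentile, a variance trend, array weights, other probe set rules, an array number block or split, arrays left out and other thresholds.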

Additional observations from a re-analysis of the deposited data

Results flagged for a closer look

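Of 20 groups of 4 arrays checked (the 9 measured genes and Onecut1, in WT and in HNF6KO), 2 had an array far from the rest by Dixon's test, and chance gives about 1 in 20. Slc39a14 on HNF6KO array 1 stood at 10.22, while the other HNF6KO arrays lay between 11.02 and 11.15. Cp on WT array 4 stood at 13.13, while the other WT arrays lay between 12.82 and 12.86.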

How the results depend on the processing

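Slc30a10 was the 1 gene of the 9 to pass under 21 of 22 alternatives, and leaving out any 1 array left that count at 1. The count was 0 within arrays 3 and 4 alone. Slc30a10 had log2 differences of -1.24 to -1.11 over the 20 alternative fits. Its difference was already known in these 8 arrays, so the refits describe it and support nothing further. Of the wider metal genes, 0 passed whichever array was left out, and 1 (Tfrc) passed with a replicate block by array number and 1 (Tfrc) with the split of arrays by number as a term. Nothing in the labels says whether the numbers pair the arrays. Same-numbered arrays had correlated deviations of 0.439, 0.167, 0.506 and 0.0233, and arrays of unlike number -0.5 to 0.445. Not every array correlated best with its own number, but with so few arrays this cannot settle whether they are paired. The count over all genes (78) was 202 with array weights, 125 with the replicate block, 245 with the split term, 22 within arrays 1 and 2, 14 and 162 at thresholds of 0.01 and 0.1, and 16 to 79 with 1 array left out. The replicate block ended no call among the 9. The cause of these differences was not tested. Signs turned for uncalled genes. Leaving out 1 array gave -0.012 to 0.31 for Slc39a14, -0.031 to 0.14 for Slc39a8, -1.02 to 0.22 for Mt2 and -0.030 to 0.11 for Cp. Within arrays 1 and 2 the value was -0.0052 for Slc39a8, 0.49 for Mt2, -0.061 for Atp7b and -1.17e-04 for Slc30a5. Within arrays 3 and 4 it was 0.046 for Slc30a7 and -0.040 for Mt3. Mt2 stood at 0.19 with array weights and Cp at -0.0043 after quantile normalization. Crp passed with the split term (adjusted p = 0.0474 in limma), and Onecut1 lost its call in 6 of the 20 fits, at -1.34 to -1.23 where 1 array was left out and at -0.83 within arrays 1 and 2, while arrays 3 and 4 alone gave -1.80.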
